A study of Mus musculus with 14 samples.

Results

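The Clu Ly6a cells are a regenerative-like group of intestinal organoid cells that were abundant after treatment with Isx-9, an isoxazole small molecule known as an inducer of neuronal differentiation. They were chosen in the Isx-9 single-cell library by counted molecules (unique molecular identifiers, UMIs). Cells were kept with 500 or more genes, 1000 or more UMIs, and mitochondrial UMIs of no more than 20%. A Clu Ly6a cell also had at least 10 Clu UMIs, at least 3 Ly6a UMIs, and under 1% of its UMIs from Chgb, the secretory granule gene that the reporter line marks. Of 10016 kept Isx-9 cells 509 met the rule, out of 37340 kept cells in 4 libraries. Clu, Ly6a and Chgb in the Isx-9 library therefore describe the choice and support nothing.

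Mouse intestinal organoids are clusters of intestinal epithelium grown from crypts, here in a medium with EGF, Noggin and R-spondin1. Single cells came from wild-type organoids without treatment, from Chgb-mCherry knock-in organoids without treatment, and from the same reporter line after 6 days of 0.05% DMSO, the vehicle, or 25 μM Isx-9. Each of these conditions is 1 library, so no p-value was computed from cells and all intervals cover counting error only. Bulk RNA came from a different line, Lgr5-EGFP knock-in organoids, whose stem cells were sorted 6 hours into treatment with DMSO or with Isx-9. There were 2 libraries for each. The labels do not say whether these 2 came from separate cultures, so p-values from bulk take in no more than library-to-library spread, which may be technical.

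After injury the intestinal epithelium can return to a state that resembles fetal gut. Ly6a, a membrane-anchored surface protein also called Sca-1, marks that state, and Clu, the secreted chaperone clusterin, marks the rare revival stem cells that appear after damage. The state is known to depend on YAP, a coactivator that drives transcription with TEAD factors and is held back by the Hippo kinases. Resting crypts instead hold Lgr5 stem cells, whose daughters become enterocytes or secretory cells, among them the hormone-making enteroendocrine cells.

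The kept cells had a median of 9374 UMIs in the Isx-9 library and 12633 to 15007 in the other 3. Clu Ly6a cells had a median of 16587 UMIs and 4194 genes, the other 9507 Isx-9 cells 9001 UMIs and 3161 genes, and those others with Chgb under 1% 11809 UMIs. Mitochondrial shares were alike, with medians of 5.72% in the Clu Ly6a cells and 5.92% in the other cells. A doublet caller marked 831 Isx-9 cells (8.30%) and 57 of the 509. It marked 1, 0 and 0 cells in the other libraries and so did not work there. Pairs of libraries shared 13 to 36 cell barcodes, of which 0 to 3 belonged to a cell meeting the rule.

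Within the 509 cells, Clu ranged from 10 to 225 UMIs with a median of 29. Ly6a ranged from 3 to 131 UMIs with a median of 11. Chgb had a median of 2 UMIs and reached 594. Just outside the rule lay 94 cells with 5 to 9 Clu UMIs and 240 cells with 1 or 2 Ly6a UMIs, and just inside it 79 cells with 10 to 14 Clu UMIs and 87 with 3 or 4 Ly6a UMIs. Near the Chgb limit, 20 of 21 cells between 0.5% and 1% were called doublets, as were 10 of 12 cells between 1% and 2% that passed the other criteria. Of the 3614 Isx-9 cells with Chgb at 1% or more, 38 had 10 or more Clu UMIs, and 33 of these 38 were called doublets. Among the same 3614 cells 263 had 3 or more Ly6a UMIs, of which only 38 (14.4%) were called doublets.

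**Figure D1:**
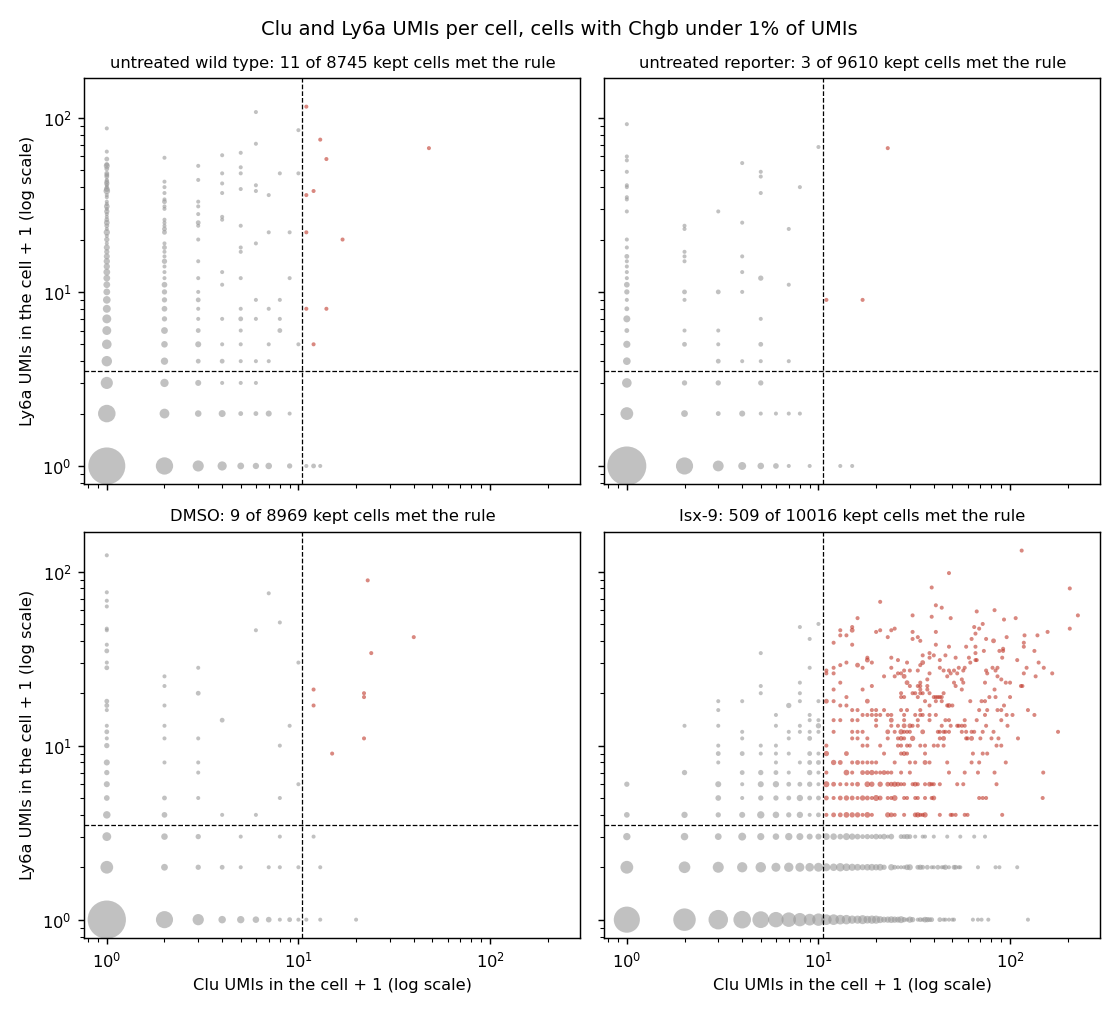
Clu against Ly6a UMIs per cell (log scales, 1 added) in the 4 libraries, for kept cells with Chgb under 1% of UMIs; a point's area grows with the square root of the number of cells and red points met the rule. The Isx-9 panel holds 509 cells beyond both dashed limits, against 11, 3 and 9 in the untreated wild-type, untreated reporter and DMSO panels.

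The same rule found few cells without Isx-9. In the Isx-9 library 5.08% of kept cells met it (exact 95% interval 4.66% to 5.53%). In DMSO 9 of 8969 cells did (0.100%, 0.0459% to 0.190%), in the untreated reporter 3 of 9610 (0.0312%) and in the untreated wild type 11 of 8745 (0.126%). The Isx-9 share was 50.6 times the DMSO share (26.5 to 111 by counting error), a comparison of 2 libraries whose rule was fitted to one of them. With minimums that scale with each cell's depth the counts were 350 (3.49%) and 2, a ratio of 157. With each cell thinned to 5000 UMIs, 173 of 9032 Isx-9 cells (1.92%) and no DMSO cell met the rule.

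Clu in Ly6a cells can be set beside the same measure in the other libraries, as a description only, since Clu and Ly6a in the Isx-9 library chose the rule. Ly6a cells without regard to Clu (Ly6a at least 3 UMIs, Chgb under 1%) were present everywhere, with 680 in Isx-9, 93 in DMSO, 103 in the untreated reporter and 437 in the untreated wild type. Their median depth was alike, from 16106.5 to 17636 UMIs, and their median Ly6a was 8 or 9 UMIs in each library. Of these Ly6a cells 74.9% had 10 or more Clu UMIs after Isx-9 (71.4% to 78.1%), against 9.68% after DMSO (4.52% to 17.6%), 2.91% in the untreated reporter and 2.52% in the untreated wild type. Median Clu was 22 UMIs after Isx-9 and 0 in each other library. With cells thinned to 5000 UMIs and a Clu minimum of 5, chosen after the data were seen, the shares were 74.9% (271 of 362), 10.4% (5 of 48), 0 of 46 (exact interval up to 7.71%) and 1.32% (3 of 228).

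Clu was also high outside the group. In CPM (the summed UMIs of a gene in a group, scaled to 1000000 UMIs in that group), all kept Isx-9 cells had 411 for Clu and all DMSO cells 8.19. Among Isx-9 cells with Chgb under 1%, 598 passed for Clu alone, 171 for Ly6a alone and 5124 for neither. The cells passing for neither still had 170.5 CPM of Clu, and cells with Chgb at 1% or more had 114. After thinning, Clu was seen in 99.8% of Clu Ly6a cells, 53.3% of the other low-Chgb cells and 30.8% of the cells with high Chgb, and Ly6a in 90.7%, 8.85% and 26.1%. Free RNA from lysed cells gives all cell types a like low share. Its part in the Clu UMIs of the high-Chgb cells was not tested.

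Beyond the genes of the rule, 256 of 8876 genes with a mean of at least 10 CPM were at least 2-fold higher in the Clu Ly6a cells than in the other Isx-9 cells (2.88%), and 524 were at least 2-fold lower (5.90%). Against the other cells with Chgb under 1%, 240 of 8573 were higher (2.80%) and 195 lower (2.27%). The 25 abundant genes with the highest ratios, called marker genes here, led with surface, cytoskeletal and secreted proteins. Ratios are given against all other Isx-9 cells, with exact counting intervals, and describe these cells only. Counts for gene lists below are to be read beside these shares of all genes. Where a list holds marker genes, its count partly repeats their choice.

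Ly6c1, a close relative of Ly6a, was at 176 CPM in the Clu Ly6a cells and 4.47 in the others, a ratio of 39.3 (35.5 to 43.7). Ly6c1 has a near-identical copy, Ly6c2, with which its reads can be shared, so this ratio is uncertain. Ly6d, another member of the family, was at 48.5 against 1.82 (26.7-fold). Of 5 measured Ly6 family genes Ly6c1 and Ly6d were at least 2-fold higher and Lypd8 was lower, and Ly6e, a broadly expressed member, was at 372 against 321.

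Calcium-binding S100 proteins and annexins, which bridge membranes and the cytoskeleton, made up 6 of the 25 markers. S100a6 was at 1909 CPM against 143 (13.4-fold, 13.1 to 13.7), with at least 1 UMI in 96.5% of the Clu Ly6a cells. Anxa3 was at 406 against 40.5, Anxa1 at 278 against 36.9, and Anxa2 at 277 against 64.0. S100a11 and its relative S100a10, the partner of Anxa2, were at 1626 against 415 and at 1297 against 430.2. Of 15 measured annexin and S100 genes 7 were at least 2-fold higher and 0 lower. These 7 include the 6 markers, which were picked for high ratios in these same cells, so the count mostly repeats that choice. In every Clu Ly6a cell S100a11 was detected (after thinning in 99.2%), but it was also seen in 84.0% of the thinned low-Chgb cells.

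The promoters of 4 of these genes are shown because they can be set beside the bulk response described at the end and because several markers were annexin and S100 genes. The sequences are from RefSeq on GRCm38.p6, 250 bases before to 50 after the annotated start, on the gene's strand from 5′ to 3′. Capitals mark matches on either strand to GGAATG, a short TEAD motif, or to TGACTCA, the AP-1 motif, whose reverse complement reads TGAGTCA. S100a6 lies at chr3:90612644-90612943 on the plus strand, S100a11 at chr3:93520246-93520545 on the plus strand, Anxa2 at chr9:69453433-69453732 on the plus strand and Anxa1 at chr19:20390622-20390921 on the minus strand.
S100a6: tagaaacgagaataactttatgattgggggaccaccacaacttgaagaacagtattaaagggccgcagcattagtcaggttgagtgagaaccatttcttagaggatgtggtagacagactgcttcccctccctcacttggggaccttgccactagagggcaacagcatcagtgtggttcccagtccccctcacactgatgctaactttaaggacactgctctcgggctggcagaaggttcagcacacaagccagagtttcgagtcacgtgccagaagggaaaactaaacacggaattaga
S100a11: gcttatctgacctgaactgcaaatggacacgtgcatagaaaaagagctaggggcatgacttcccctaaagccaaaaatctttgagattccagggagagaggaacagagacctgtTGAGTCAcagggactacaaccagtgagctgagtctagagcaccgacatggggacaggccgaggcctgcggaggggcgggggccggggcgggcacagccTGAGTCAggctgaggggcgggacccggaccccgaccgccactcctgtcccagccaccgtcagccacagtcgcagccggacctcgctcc
Anxa2: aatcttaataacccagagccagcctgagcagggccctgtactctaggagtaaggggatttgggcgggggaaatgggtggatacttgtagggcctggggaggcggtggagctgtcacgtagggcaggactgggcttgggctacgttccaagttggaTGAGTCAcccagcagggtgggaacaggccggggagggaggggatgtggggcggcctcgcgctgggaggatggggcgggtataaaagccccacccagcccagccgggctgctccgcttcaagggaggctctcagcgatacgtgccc
Anxa1: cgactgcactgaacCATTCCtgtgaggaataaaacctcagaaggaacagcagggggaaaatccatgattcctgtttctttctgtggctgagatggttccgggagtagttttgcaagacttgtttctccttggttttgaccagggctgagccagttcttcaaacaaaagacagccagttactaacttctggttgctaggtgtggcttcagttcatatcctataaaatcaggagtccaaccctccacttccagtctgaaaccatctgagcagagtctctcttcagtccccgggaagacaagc
The S100a11 window holds 2 AP-1 matches, the Anxa2 window 1 AP-1 match, the Anxa1 window 1 TEAD match, and the S100a6 window holds neither. The RefSeq table matched 16 of the 25 marker genes, with 18 windows. AP-1 matches were in 3 of the 18 windows (Anxa2, Myl12a and S100a11; 16.7%), against 5.20% of 32851 windows in the table. TEAD matches were in 4 of the 18 (Ahnak, Anxa1, Myl12a and Phlda3; 22.2%), against 14.7% of all windows. The 2 motifs can share at most 2 letters at an end (TG or CA), and a match describes letters, not a bound site. Clu, Ly6a, Rdh10, Anxa3, Glipr1, Ctgf, Fn1, Krt19, Sbspon, Pmepa1 and S100a10 have no entry in the table.

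Secreted and signalling genes made up much of the rest. Ctgf, a matrix-bound growth factor and a classical YAP target, was at 105 against 12.4 CPM (8.52-fold, 7.83 to 9.26) but was detected in only 46.4% of the Clu Ly6a cells. Areg, an EGF receptor ligand, was at 137 against 17.0. Wnt6, a Wnt ligand, was at 165 against 23.5. Fn1, which encodes fibronectin, was at 107 against 26.6. Rdh10, an enzyme of retinoic acid synthesis, was at 246 against 22.2 (11.1-fold), and Glipr1 at 132 against 13.98. These genes were found in many but not all cells, from 46.4% for Ctgf to 82.1% for Rdh10 before thinning.

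The antimicrobial lectin genes Reg3b and Reg3g were at 1153 against 153 and at 1135 against 328 CPM. Reg3b varied widely from cell to cell: 63.9% of the Clu Ly6a cells had a Reg3b UMI, the median cell had 3 and the highest 503. Cdkn2a, which encodes the cell cycle inhibitor p16 and the p53 regulator ARF, was at 126 against 34.6. Krt19, a keratin of simple epithelium, was at 1251 against 374, the myosin light chain gene Myl12a 3.33-fold higher, the stress gene Nupr1 5.57-fold, Ahnak, which encodes a giant scaffold protein, 10.5-fold, and the early response gene Ier3 4.11-fold. The remaining markers were Arl4c (3.42-fold), Sbspon (3.20-fold), Pmepa1 (3.06-fold) and Phlda3, a p53 target (146 against 48.4).

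Most markers followed the order of the rule. The Clu-only and Ly6a-only cells lay between the Clu Ly6a cells and the cells passing for neither for S100a6 (330.2 and 673, between 1909 and 98.8 CPM). Ly6c1 was at 12.8 in Clu-only and 47.7 in Ly6a-only cells, against 176 and 1.71. Ctgf stood nearer to Clu, at 52.2 in Clu-only and 31.4 in Ly6a-only cells, and Sbspon was as high in Clu-only cells (105) as in Clu Ly6a cells (111). Nupr1 and Anxa2 went with Ly6a: Clu-only cells had 25.9 and 72.5, close to the 24.6 and 53.9 of cells passing for neither, and Ly6a-only cells 69.4 and 165.

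**Figure D2:**
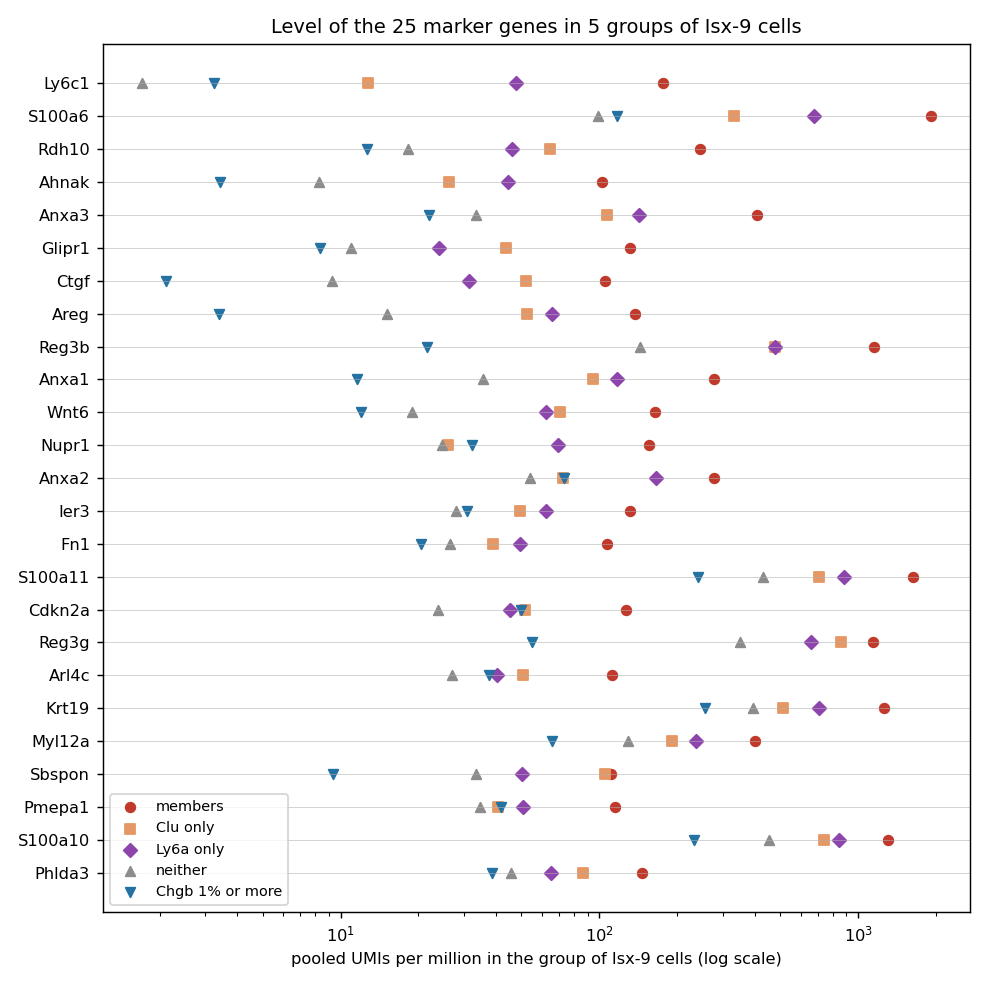
Pooled CPM (log scale) of the 25 marker genes, ordered by ratio, in Clu Ly6a cells (members), cells passing for Clu only, for Ly6a only, for neither, and cells with Chgb at 1% or more. The Clu Ly6a cells are the rightmost point for each gene, which the choice of markers favours, and Clu-only and Ly6a-only cells mostly lie between them and the remaining low-Chgb cells.

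Genes listed for the fetal-like and regenerative state were mostly high. Of 26 listed genes 20 were abundant enough to compare, and 15 of these were at least 2-fold higher and 0 lower. Their median log2 ratio was 2.06, against -0.05 over all 8876 genes. The 15 include the markers Ly6c1, S100a6, Anxa3, Areg and Anxa1, which were picked for high ratios in these same cells. The count and the median therefore partly repeat that choice. Sprr1a, a cornified envelope gene that marks epithelial repair, was at 21.3 against 0.861 CPM (24.8-fold, 19.2 to 32.2). Few cells carried it: 8.64% of the Clu Ly6a cells had a Sprr1a UMI, or 5.12% after thinning. Spp1, the secreted matrix protein osteopontin, was at 52.5 against 8.66. Il33, an epithelial alarmin, was at 15.96 against 4.92. Before thinning, 36.7% of the Clu Ly6a cells had a Spp1 UMI and 23.4% an Il33 UMI. Ly6e, Krt7, Basp1, Cldn4 and Hmga2 differed by less than 2-fold. Msln was 50.9-fold higher but at only 7.39 CPM, and Anxa8, Ecm1, Il1rn, Gja1 and Fst were, like Msln, under the abundance limit. Against the low-Chgb cells alone 15 of 19 were at least 2-fold higher.

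YAP output genes were mostly higher, and YAP pathway genes were not. Of 15 measured YAP and TEAD target genes 9 were at least 2-fold higher and 2 lower, or 7 and 0 against the low-Chgb cells. Besides Ctgf these were led by Ajuba, a LIM domain protein that inhibits the Hippo kinases (33.1 against 6.48 CPM), and Myof, a membrane repair protein (28.5 against 6.33). Cyr61, a relative of Ctgf, was at 94.4 against 41.4. Fjx1 (ratio 0.309) and Asap1 (0.393) were lower, and in the low-Chgb cells alone their ratios were 0.722 and 0.895. Among 12 measured genes of the pathway itself only Wwtr1, the YAP paralog TAZ, passed 2-fold (44.4 against 15.7), while Yap1 was at 24.8 against 17.0 and the kinase gene Lats1 at 17.6 against 26.3.

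Inflammatory and stress lists were mixed. Over all genes 2.88% were at least 2-fold higher and 5.90% lower, so a single gene in a list says little. Of 10 measured NF-kB and mucosal defence genes 7 were at least 2-fold higher: Reg3b and Reg3g, the iron-binding lipocalin gene Lcn2 (35.4 against 3.14), the chemokine gene Cxcl16 (61.4 against 12.5), Icam1, Relb and Nfkbia. The polymeric immunoglobulin receptor gene Pigr was at 192 against 377. Of 12 interferon and antigen presentation genes 1 was higher, Bst2, and the class II chaperone Cd74 was 6.65-fold higher while H2-Ab1, a class II chain, was at 57.8 against 79.5. Of 11 heat shock genes 4 were higher, among them the small chaperones Cryab (60.1 against 3.17) and Hspb1 (418 against 179). Hspa1b, whose reads can be shared with its near-identical copy Hspa1a, was at 20.6 against 7.88 and is uncertain. Of 17 AP-1 and immediate early genes 6 were higher and 0 lower, of 16 p53 targets 3 and 1, of 7 EGF receptor and ligand genes 2 and 0 (Areg and Hbegf), and of 23 keratin, claudin and adhesion genes 5 and 1. Among 12 TGF-beta and BMP genes the receptor gene Tgfbr2 was higher (85.3 against 28.8) and Bambi, a decoy receptor, lower (12.2 against 54.8), with Tgfbr1 and Bmp7.

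Enteroendocrine genes were low, and other lineage lists were mixed. Over all genes 2.88% were at least 2-fold higher and 5.90% lower, or 2.80% and 2.27% against the low-Chgb cells. All 29 measured enteroendocrine genes were at least 2-fold lower, which the Chgb limit favours, and against the low-Chgb cells, where that limit applies to both sides, 20 of 24 still were. Neurog3, the factor that starts the endocrine program, was at 70.9 against 404 CPM in the low-Chgb cells, the endocrine transcription factor genes Neurod1 and Insm1 at 15.8 against 75.04 and at 32.0 against 125, and the hormone genes Cck and Gip at 192 against 1013 and at 18.8 against 95.6. Sst, the somatostatin gene, was at 1.39 against 93.3, but few cells carried it, 0.787% and 0.848% after thinning. Gip too was in few cells, 1.77% and 3.22% after thinning. The 15 abundant genes with the lowest ratios against all other cells were Reg4, Tac1, Neurod1, Hepacam2, Chga, Cck, Fev, Scn3a, Runx1t1, Slc18a1, Vwa5b2, Insm1, Pcsk1n, Nkx2-2 and Gip, with ratios from 0.0729 to 0.150. Against all other cells 3 of 5 goblet genes were at least 2-fold lower, among them Tff3, a mucus-stabilising peptide, at 64.9 against 278. Of 12 enterocyte genes 1 was higher and 4 lower, with the sucrase gene Sis at 6.85 against 62.3 (16.8 in the low-Chgb cells). Against the low-Chgb cells 2 of 4 goblet genes were at least 2-fold lower, and of 10 enterocyte genes 0 were higher and 3 lower. Of 3 tuft genes 2 were higher than in all other cells, Dclk1 at 20.9 against 7.87 and Ptgs1 at 26.4 against 11.8. Of 9 Paneth genes the defensins Defa22, Defa21 and Defa30 were higher and Habp2 and Lyz1 lower. The defensin excess came almost wholly from a single cell per gene. For Defa22 the highest cell held 754 of the 762 UMIs in the Clu Ly6a cells, for Defa21 652 of 683 and for Defa30 877 of 891. Only 1.38% of Clu Ly6a cells had a Defa22 UMI. These ratios therefore do not describe the group.

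Crypt stem cell genes were present, several of them at lower levels. Lgr5, the R-spondin receptor that marks crypt stem cells, was at 175 CPM against 222 in all other cells and 277 in the low-Chgb cells. After thinning it was found in 52.4% of the Clu Ly6a cells and 66.5% of the other low-Chgb cells, and before thinning, at unequal depths, in 82.3% and 80.3%. Olfm4, a secreted marker of the same cells, was at 34.5 against 169.6, and Ascl2, a Wnt-driven stem cell factor, at 14.6 against 28.7. Of 21 listed stem cell genes 0 were at least 2-fold higher and 3 lower, Olfm4, Ephb3 and Hopx. Against the low-Chgb cells only Olfm4 was 2-fold lower, and the ratios of Ephb3 and Hopx were 0.557 and 0.633. None of 26 proliferation genes passed 2-fold in either direction. After thinning, 20.5% of the Clu Ly6a cells had an Mki67 UMI (104 of 508, 17.0% to 24.2%), against 18.3% of the other low-Chgb cells (17.3% to 19.4%), 28.4% of Clu-only cells and 2.46% of high-Chgb cells. Before thinning the first of these shares was 32.6% and the second 24.9%, at median depths of 16587 and 11809 UMIs.

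Immune, endothelial and glial markers were sparse, and some mesenchymal genes were not. The summed level of 7 measured immune genes was 4.82 CPM in the Clu Ly6a cells and 5.33 in the others, and Ptprc, Cd3g and Csf1r, defining genes of leukocytes, T cells and macrophages, were at 0 in the former. For 6 endothelial and glial genes the sums were 14.6 and 26.7, with Sox10 at 0. The 10 mesenchymal genes summed to 418 and 396, of which Vim, an intermediate filament gene, made up 279 and 355, with a UMI in 90.2% of the Clu Ly6a cells. Acta2, smooth muscle actin, was at 21.5 against 1.65 and Sparc, a matrix protein, at 99.8 against 20.8, the 2 of 3 comparable mesenchymal genes that were at least 2-fold higher. Their part in the other ratios was not tested.

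The Clu Ly6a cells were not all of a kind when clustered. Clusters of the kept Isx-9 cells were made from variable genes without Clu, Ly6a and Chgb and are called by number. Of the 509 cells 349 (68.6%, 64.3% to 72.6%) fell in cluster 8, where they made up 56.9% of 613 cells. The other cells of that cluster had 1334 Clu and 189 Ly6a CPM. All low-Chgb cells that did not meet the rule, those of cluster 8 among them, had 304 and 29.7. Cluster 14 held 73 and cluster 10 held 22, both led by cell division genes, and cluster 5 held 43, all called doublets, as were 87.3% of that cluster. On average 61.3% of a Clu Ly6a cell's 15 nearest neighbours met the rule, against 2.09% for the other cells. At a finer resolution the largest share was 46.0%, in a cluster where 85.4% of cells met the rule. Several markers were high throughout cluster 8. Its other cells had Reg3g at 1244 CPM and Sbspon at 144, against 1263 and 129 in its Clu Ly6a cells. Reg3b was at 756 against 1202, Wnt6 at 138 against 193 and Ctgf at 93.5 against 142. S100a6 (835 against 2522) and Ly6c1 (50.5 against 222) differed more.

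**Figure D3:**
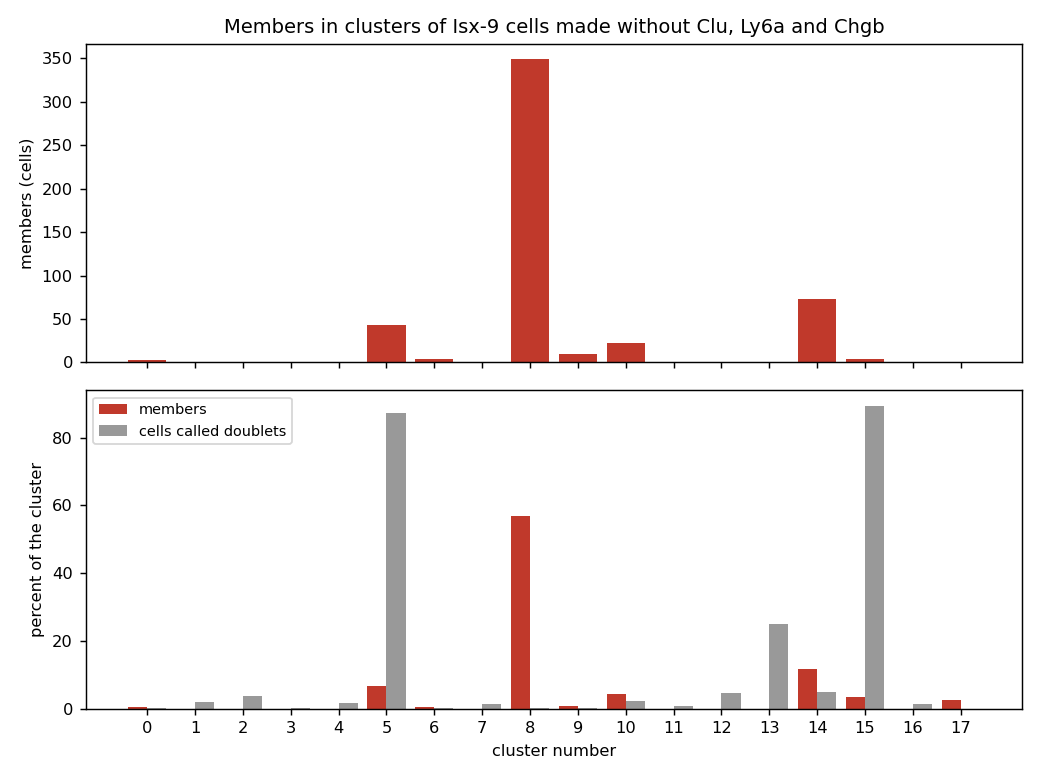
Number of Clu Ly6a cells (members) in each of 18 clusters of Isx-9 cells (top), and the percent of each cluster's cells that were members or were called doublets (bottom). Cluster 8 holds 349 of the 509 cells, and the 43 in cluster 5 lie in a cluster where 87.3% of cells were called doublets.

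Within the group the clusters differed. In cluster 8 the median cell had 33 Clu and 14 Ly6a UMIs, and Ctgf and Anxa3 stood at 142 and 516 CPM. The 73 cells of cluster 14 had medians of 25 and 7 UMIs, 42.5 for Ctgf and 252.5 for Anxa3, and Mki67 at 374 against 24.6 in cluster 8. Reg3b was at 1418 in cluster 14 and 1202 in cluster 8. The listed enteroendocrine genes summed to 393 in cluster 8, 353 in cluster 14 and 4956.5 in cluster 5. Without the cells called doublets 452 of 9185 cells met the rule (4.92%), and 291 of 8843 genes were at least 2-fold higher.

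Across 508 Clu Ly6a cells thinned to 5000 UMIs, rank correlations described which genes went together, within 1 library and with sampling noise shared by low counts. The rule cut off Clu and Ly6a from below, and the clusters that these cells came from differed in both. The part of these limits in the correlations was not tested, so the values describe this chosen group only. Krt19 and Anxa3 went with Ly6a (Spearman's rho 0.48 and 0.47), more than with Clu (0.32 and 0.24). S100a11 went with both (0.41 with Clu, 0.44 with Ly6a). Rdh10 and Arl4c leaned to Clu (0.37 and 0.28, against 0.29 and 0.15 with Ly6a). Reg3b and Reg3g had rho near or below 0 with Ly6a (-0.02 and -0.12) and 0.18 and 0.21 with Clu. Clu with Ly6a had 0.30.

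The few cells that met the rule in the other libraries, which played no part in choosing it, carried much of the same set. In DMSO 18 of the 25 markers were at least 2-fold higher in the 9 cells than in the other cells, beside 10.6% of all genes. In the 11 cells of the untreated wild type 16 were (12.8% of all genes), and in the 3 of the untreated reporter 12 were (21.8%). In DMSO S100a6 was at 5307 against 91.1 CPM (58.3-fold, 54.9 to 61.9), Anxa1 at 678 against 8.22 and Areg at 1134 against 71.9. The 7 markers that were not 2-fold higher in DMSO were Reg3b, Wnt6, Fn1, Cdkn2a, Reg3g, Sbspon and Phlda3. Wnt6, Fn1 and Sbspon had no UMI among 225732, and with so few UMIs their ratio intervals reach to 50.3, 202 and 184. Cdkn2a had 1 UMI and a ratio of 10.4 (0.259 to 60.5), which was left out of the count by the minimum of 10 CPM.

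Ly6a cells with or without Clu allowed a comparison on more cells, chosen in each library by Ly6a and Chgb alone and added after the data were seen. The genes named next were picked after their values were seen. Some were lower in the Isx-9 Ly6a cells. Krt19 was at 1133 CPM, against 4103 to 4662 in the other 3 libraries. Anxa2 was at 253 against 1765 to 2339, Areg at 122 against 568 to 1056, Nupr1 at 137 against 425 to 511, and Sprr1a at 17.0 against 556 to 610.2. Ly6d was at 41.7 against 310.0 to 397, and S100a6 at 1641 against 2390.4 to 2913.

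Others were higher there. Reg3g was at 1031 CPM in the Isx-9 Ly6a cells against 32.2 to 142, and Reg3b at 1007 against 0 to 65.4. Glipr1 was at 108 against 8.24 to 19.9, Ctgf at 89.3 against 4.06 to 12.3 and Rdh10 at 202 against 43.7 to 94.2. Wnt6 was at 142 against 0 to 0.119, Sbspon at 97.5 against 0 to 0.119, and Cdkn2a at 109 against 1.31 to 3.51. Fn1 was at 94.2 and had no UMI in the Ly6a cells of the other 3 libraries. Hspb1 was at 378 against 0.478 to 7.02, and Wfdc2, a secreted protease inhibitor, at 475 against 1.43 to 1.75. Myl12a (364, against 362 to 418) and Ier3 (116, against 124 to 149) were much alike.

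Several of these genes were not particular to Ly6a cells. Among all Isx-9 cells Wnt6 was at 35.2 CPM, Fn1 at 33.2, Sbspon at 40.8, Wfdc2 at 257 and Hspb1 at 199, against 0.338, 0.0944, 0.102, 0.236 and 0.228 among all DMSO cells. Each condition is 1 library, so the treatment and the library cannot be told apart.

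**Figure D4:**
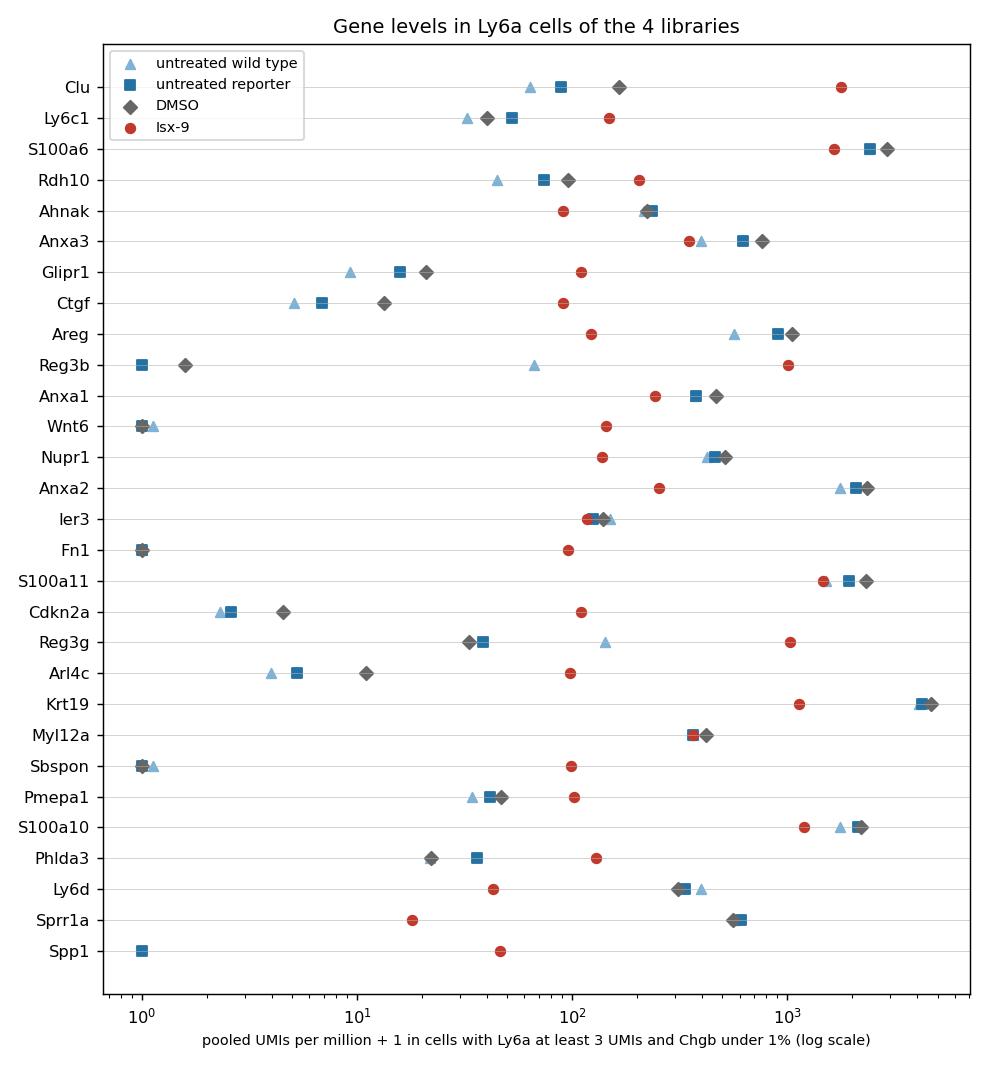
Pooled CPM plus 1 (log scale) of Clu, the 25 marker genes and 3 fetal-like genes in cells with at least 3 Ly6a UMIs and Chgb under 1%, in the 4 libraries. Krt19, Anxa2, Areg, Ly6d and Sprr1a are lowest in the Isx-9 library, and Clu, Reg3g, Wnt6, Fn1, Sbspon and Cdkn2a are highest there; a gene missing from a library's table has no point.

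Bulk RNA from sorted stem cells tested the genes in libraries the rule did not use, at 6 hours. In bulk, fewer cells of a type and less RNA per cell cannot be told apart. Of 17418 tested genes 4755 rose (27.3%) and 3488 fell (20%) at an edgeR quasi-likelihood adjusted p under 0.05. Scaling by library size alone gave 5475 and 2095 and moved the median log2 fold change of all genes from 0.02 to 0.14. Of 23 tested markers 16 rose and 2 fell, with a median log2 fold change of 0.65. Leaving out a library changed the 16 to between 11 and 17. Markers of other cell types moved too: 4 of 4 tested mesenchymal genes, 4 of 5 endothelial and glial genes and 10 of 10 neuronal genes rose, while 0 of 4 immune genes rose and 1 fell. Their part in the rise of the markers was not tested.

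Clu was at 17.1 and 4.41 CPM (here reads scaled to 1000000 per library with TMM factors) in the DMSO libraries and at 33.0 and 17.9 in the Isx-9 libraries. The groups did not overlap, but the higher DMSO library lay next to the lower Isx-9 one. The log2 fold change was 1.24 (SE 0.45, edgeR adjusted p = 0.0404), and it did not pass with DESeq2, without a filter on low counts, without DMSO replicate 2 (0.57) or without Isx-9 replicate 1. Without DMSO replicate 1 it was 2.52. Ly6a was at 2.69 and 0.386 in DMSO and at 2.84 and 2.34 after Isx-9. Its groups overlapped and its log2 fold change was 0.75 (SE 0.66, edgeR adjusted p = 0.383). Without DMSO replicate 1 the Ly6a value was 2.72 and passed (edgeR adjusted p = 0.00650), and without DMSO replicate 2 it was -0.06 (edgeR adjusted p = 0.924), the ends of the range over its alternatives. For Clu the adjusted p over the alternatives, DESeq2 among them, ran from 1.22e-05 to 0.318.

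The markers that moved most in bulk were secreted and matrix genes. Fn1 was at 0.484 and 1.16 CPM in DMSO and at 52.0 and 33.8 after Isx-9, a log2 fold change of 5.70 (SE 0.32, edgeR adjusted p = 2.84e-07), or 6.44 without DMSO replicate 2. Reg3b was at 0.108 and 0.441, then 3.49 and 3.84, a log2 fold change of 3.72, which was 3.03 without DMSO replicate 1 and 5.0 without DMSO replicate 2. Wnt6 was at 0.377 and 0.331, then 4.88 and 3.29, a log2 fold change of 3.51. In each of these genes every Isx-9 library lay far above both DMSO libraries. Anxa1 was at 2.10 and 1.87 and then 18.8 and 13.5 (3.02, SE 0.27), and Reg3g at 3.77 and 2.86 and then 21.5 and 20.5 (2.66, SE 0.21).

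Smaller rises were seen in S100a6 (log2 fold change 1.18), Anxa3 (1.18), Ahnak (1.34), Arl4c (1.36), Glipr1 (0.65) and S100a10 (0.37). Phlda3 (0.68), Pmepa1 (0.52), S100a11 (0.46), Ier3 (0.42) and Areg (0.39) also rose, and each of these 5 lost its call when some library was left out. Krt19 fell from 622 and 590.3 CPM to 311 and 365 (log2 fold change -0.84, SE 0.09, edgeR adjusted p = 1.99e-05). Rdh10 fell from 55.5 and 52.8 to 27.3 and 24.5 (-1.07, SE 0.11), although it is a marker of the Clu Ly6a cells. The 2 contrasts differ: bulk sets Isx-9 against DMSO at 6 hours, and a marker ratio sets groups of Isx-9 cells against each other at 6 days. Ctgf (0.14), Nupr1 (0.08), Anxa2 (0.24) and Myl12a (0.13) did not pass. Sbspon did not pass either (1.42, edgeR adjusted p = 0.0593), but did with library size alone, with a replicate block, when DMSO replicate 1 (2.01) or Isx-9 replicate 2 (2.02) was left out, and it was 0.49 without Isx-9 replicate 1. The edgeR and DESeq2 adjusted p of Sbspon ran from 0.0174 to 0.668 over its alternatives. Ly6c1 and Cdkn2a had too few counts for the test. Neither had a count in DMSO, and they had 5 and 12 and 10 and 8 in the Isx-9 libraries, at least 5.66-fold and 5.99-fold higher when a group at 0 is set to 3 counts in all.

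**Figure D5:**
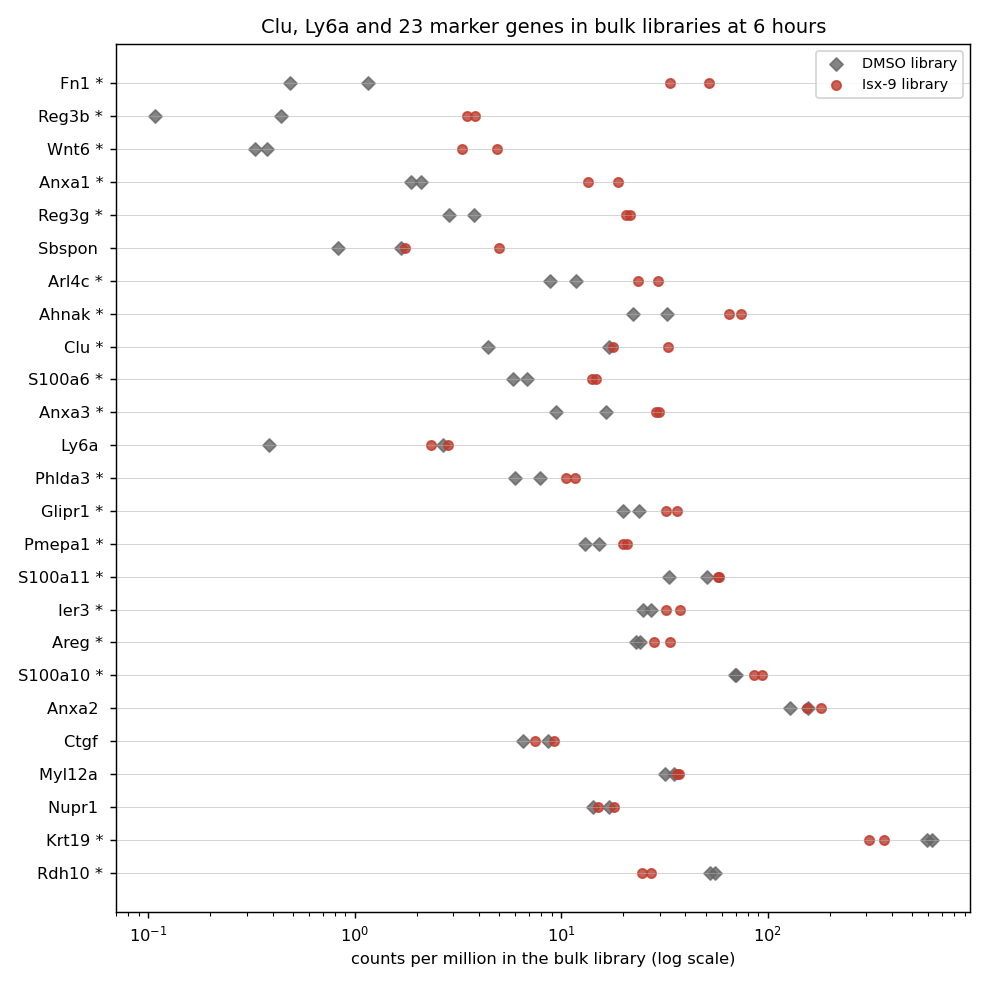
CPM (log scale) of Clu, Ly6a and 23 tested marker genes in the 2 DMSO and 2 Isx-9 bulk libraries at 6 hours, ordered by fold change; a star marks an edgeR adjusted p under 0.05. Fn1, Reg3b, Wnt6, Anxa1 and Reg3g lie far apart by treatment, Ly6a overlaps between treatments, and Krt19 and Rdh10 are lower after Isx-9.

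Over all 17418 genes tested in bulk 27.3% rose and 20% fell, and the counts for the YAP pathway genes below lay near these shares. Of 22 tested fetal-like and regenerative genes 14 rose and 0 fell in bulk (median log2 fold change 0.78). The connexin gene Gja1 rose by 6.46 (SE 0.59) and Il33 by 2.46 (SE 0.71), the latter from under 1 CPM with a call lost in 5 alternatives and a value of 3.39 without DMSO replicate 1. Basp1 had no count in DMSO and was at least 171-fold higher on the same footing as Ly6c1 and Cdkn2a. Of 20 YAP and TEAD targets 12 rose and 2 fell (median 0.92). Fjx1 had the highest value of these 20, with 0 and 1 count in the DMSO libraries and 110 and 85 after Isx-9 (7.17, SE 0.75), and Asap1 rose too, whereas both were lower in the Clu Ly6a cells than in all other cells. Also higher were Myof at 2.16 (SE 0.17), Amotl1, an angiomotin that binds YAP, at 3.81 and F3, tissue factor, at 1.24, while Nuak2 and Wwc1 fell. Ajuba, at 12.7 in each DMSO library and 15.2 and 17.0 after Isx-9, did not pass (0.34, edgeR adjusted p = 0.119). Of 15 pathway genes 5 rose and 3 fell: Wwtr1 rose from 11.5 and 12.2 CPM to 50.9 and 48.7 (2.07, SE 0.13), Tead2 by 1.76 and Tead4 by 2.04, and Yap1 fell by 0.29, a call lost with library size alone and without either Isx-9 library.

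Other lists in bulk are to be read beside the 27.3% of all tested genes that rose and the 20% that fell. They compare Isx-9 with DMSO in sorted stem cells, a different contrast from the ratios between groups of Isx-9 cells. Of 18 TGF-beta and BMP genes 14 rose and 0 fell (median 1.52), among them Tgfb1 (2.73) and Id3 (1.92), whereas Tgfbr2, 2.96-fold higher in the Clu Ly6a cells, did not pass (-0.16). Of 8 complement genes 7 rose, and of 11 heat shock genes 5 rose and 3 fell, led by Hspb1 (4.07, SE 0.29), which was also high in the Clu Ly6a cells. Of 19 NF-kB and mucosal defence genes 8 rose and 3 fell, and of 19 annexin and S100 genes 10 rose and 2 fell. Of 21 stem cell genes 3 rose and 12 fell, with Olfm4 at -0.51 (SE 0.11). Of 28 proliferation genes 0 rose and 16 fell, and Mki67 was at -0.01 (edgeR adjusted p = 0.903). Neurog3, low in the Clu Ly6a cells, rose by 1.31 (SE 0.23, edgeR adjusted p = 0.000803).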

How the data were processed

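The single-cell values are UMI counts per gene and cell that the authors deposited, made with Cell Ranger 3.1.0 per the submitters' processing notes, which also name Seurat 3.1.5. The bulk values are read counts per gene as deposited. For these the notes name Trim Galore 0.6.4, HISAT2, HTSeq 0.12.4 and DESeq2 1.24.0, with GRCm38 as a build. Bulk libraries held 18909542 to 19487264 counts in genes. The 6 chromatin accessibility samples were not analysed here.

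The members and the 29 gene lists were chosen with earlier results of these data known. Named genes are those of the rule, the 25 highest and 15 lowest ratios, up to 4 genes of each list with the largest ratios, and a fixed set. The markers and lowest genes had a mean of at least 10 CPM, at least 100 in the higher group and at least 10 UMIs in the lower. Other list genes given with values were chosen after their values were seen, and 1 gene is not reported here.

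Cells were summed per group and compared as CPM (scaled to 1000000 per group), with exact conditional Poisson intervals for ratios and Clopper-Pearson 95% intervals for shares, which cover counting error only (Python 3.11.15, numpy 2.4.6, scipy 1.17.1). Clusters came from scanpy 1.11.5 (2000 variable genes, 30 components, 15 neighbours, Leiden resolution 1), and doublets were called with Scrublet and kept. Bulk counts were tested with edgeR 4.0.16 (TMM, filterByExpr, quasi-likelihood, two-sided, Benjamini-Hochberg over all tested genes), with DESeq2 1.42.0 as an alternative in R 4.3.3. Both the ratios and the bulk test were first tested on simulated data. Ly6 family genes share sequence in part, so their counts are uncertain.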

Additional observations from a re-analysis of the deposited data

Results flagged for a closer look

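For 6 genes the ratio of Clu Ly6a cells over other cells lay on opposite sides of 1 in the Isx-9 and DMSO libraries. The difference was not tested, and the DMSO side rests on 9 cells. For the defensin genes among them the Isx-9 side rests almost wholly on 1 Clu Ly6a cell per gene. Atf3, a stress-induced transcription factor gene, had a ratio of 2.14 (1.96 to 2.34) after Isx-9 and 0.206 (0.0250 to 0.745, 2 UMIs) after DMSO. For Fosb, an AP-1 subunit gene, the ratios were 2.07 (1.84 to 2.33) and 0.101 (0.00257 to 0.565, 1 UMI).

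The Paneth defensin gene Defa22 had a ratio of 6.31 after Isx-9, and no UMI in the 9 DMSO cells, with an interval up to 0.128. Defa21 had 4.41 and no UMI, up to 0.175. Defa30 had 3.21 and 0.0350 (0.00954 to 0.0896, 4 UMIs). In 1 Clu Ly6a cell alone there were 754 of the group's 762 Defa22 UMIs. The highest cell likewise held 652 of 683 Defa21 UMIs and 877 of 891 Defa30 UMIs. The Isx-9 ratios of these defensins therefore do not describe the group, and no difference between the libraries can be read from them. Dclk1, a tuft cell kinase gene, had 2.65 (2.26 to 3.11) after Isx-9 and no UMI in the DMSO cells, with an interval up to 0.625.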

How the results depend on the processing

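The share of Isx-9 cells meeting the rule, 5.08%, was 6.02% with a Clu minimum of 5, 3.56% with 20, 7.48% with a Ly6a minimum of 1, 4.21% with 5, 1.92% with cells thinned to 5000 UMIs and 3.49% with minimums scaling with depth. Its ratio to DMSO, 50.6, rested on 9 DMSO cells. The ratio was 30 (18.8 to 51.0) with a Clu minimum of 5, 42.0 with a Ly6a minimum of 5, 61.5 with a mitochondrial limit of 10% and 157 with minimums scaling with depth, where 2 DMSO cells remained, and it could not be formed after thinning, where no DMSO cell met the rule. The count of 256 of 8876 genes at least 2-fold higher was 75 of 2860 with a filter of 50 CPM. With no filter beyond 1 UMI in both groups it was 1490 of 17624. The share of Clu Ly6a cells in their main cluster, 68.6%, was 46.0% at resolution 2. In bulk, genes that fell numbered 2095 with library size alone, and 2062 to 3090 with a replicate left out, the lowest without Isx-9 replicate 1. Genes that rose numbered 3599 to 4536 with a replicate left out. Markers that rose numbered 11 to 17 with a replicate left out, 12 without a filter on low counts and 14 with DESeq2. The deviations of same-numbered bulk replicates had a correlation of 0.01, which with 2 libraries per group cannot show whether they were paired. With a replicate block 4723 genes rose, 3408 fell and 17 markers rose. Of 791 alternative ratios of 143 named genes 360 moved by more than their counting interval. Of 1047 alternative bulk values of 131 genes 101 lost a call and 40 gained one. No called value among these changed sign. With 1 library per single-cell condition the spread between cultures is unknown. In bulk Ly6a was under 3 CPM, and its DMSO libraries differed widely, with counts of 50 and 7, against 57 and 47 after Isx-9.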
